A study of Mus musculus with 12 samples.

Results

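Levels of 33 genes that add, remove or read acetyl groups on histones and other proteins were described in mouse CD4 T cells with and without the glucose transporter GLUT3. The 33 were taken by symbol from a list of 13 acetyltransferases, 11 classical deacetylases, 7 sirtuins and 2 bromodomain readers, out of 45703 genes in each of 2 expression tables. All 33 were found in both tables. The rule uses gene symbols and no measured value.

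The 4 groups were Th17 KO, Th17 WT, Th1 KO and Th1 WT, with 3 libraries each. KO cells carried the genotype Slc2a3-fl/fl Cd4-cre, in which Slc2a3, the gene of GLUT3, is floxed and Cre is driven by the Cd4 promoter, which acts in T cell development and so before the culture began. WT cells were wild type, and the labels mention neither Cre nor floxed alleles for them. All groups had the C57BL/6 background and came from naive T cells stimulated with antibodies to CD3 and CD28 for 3 days in culture, with cytokines that polarize to the Th17 lineage, named for its interleukin 17, or to the Th1 lineage, whose hallmark cytokine is interferon gamma. The labels give no age or sex, and do not say that replicates were separate mice or cultures, so p-values measure only the spread between libraries, which may be technical.

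Acetyltransferases move the acetyl group of acetyl-CoA to lysines. On histone tails this loosens chromatin and creates marks that bromodomain proteins bind. Classical deacetylases, which use zinc, and sirtuins, which use NAD, take the mark away. Acetyl-CoA and NAD are both tied to glucose metabolism, and histone acetylation at cytokine genes is part of helper T cell differentiation. The comparisons asked whether RNA levels of the enzymes and readers differed with GLUT3 or with lineage. RNA levels say nothing of enzyme activity.

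Values are TPM, a measure of transcript abundance: reads per length of exon, scaled to the same total in each library. Reads recovered from TPM and exon length numbered 16596283 to 28496606 per library, so that 3 reads on 1 kb of exon correspond to 0.19 to 0.437 TPM (counting error only). Slc2a3 stood at 5.14, 18.7 and 3.3 TPM in Th17 KO, against 379, 109 and 44.6 TPM in Th17 WT, and at 6.79, 4.49 and 7.97 TPM in Th1 KO, against 398, 95.6 and 64.7 TPM in Th1 WT. Il17f, a cytokine of Th17 cells, was at 309.6 to 1076 TPM in the Th17 libraries and at 0.307 to 4.52 TPM in the Th1 libraries. Il17a was at 36.8 to 74.4 TPM in Th17 KO and 18.3 to 22.0 TPM in Th17 WT. In Th1 KO it was at 1.69 to 15.4 TPM, and in Th1 WT at 0 to 0.427 TPM. Ifng, the gene of interferon gamma, was at 54.7 to 119 TPM in Th17 KO and 1.99 to 4.64 TPM in Th17 WT. In Th1 it was at 6739 to 8709 TPM in KO and 487 to 1115 TPM in WT. The Th1 marker Tbx21 was at 19.2, 81.2 and 10.3 TPM in Th17 KO and 2.38 to 4.66 TPM in Th17 WT. Th17 KO replicate 2 stood apart: its median absolute log2 difference from the rest of its group was 0.62, against 0.136 to 0.424 in the other 11 libraries. Calls of the 33 genes that rest on Th17 KO libraries are therefore also given without it.

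Of the 33 genes, 31 reached 1 TPM in enough libraries to be tested in every comparison, and 30 were at 1 TPM or more in every library. By their median over the 12 libraries, 4 genes stood at 100 TPM or more: Hdac1 at 356 TPM, Hat1 at 305 TPM, Hdac2 at 165 TPM and Sirt2 at 134 TPM. A further 5 lay between 20 and 100 TPM, namely Sirt7, Hdac3, Kat8, Brd2 and Kat7, and 22 between 1 and 20 TPM. The class IIa deacetylase Hdac9, at 0.00449 to 0.0829 TPM, and the class IV deacetylase Hdac11, at 0 to 0.113 TPM, were under 1 TPM in every library and were not tested. TPM divides by the combined length of all annotated exons of a gene, which can exceed that of the transcripts expressed. Levels of different genes can therefore be compared only roughly. In Th17 KO replicate 1, Hdac8 (19000 bases of exon) had 420 reads and 1.72 TPM. Sirt3 (1604 bases) had 186 reads and 9.0 TPM there.

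**Figure D1:**
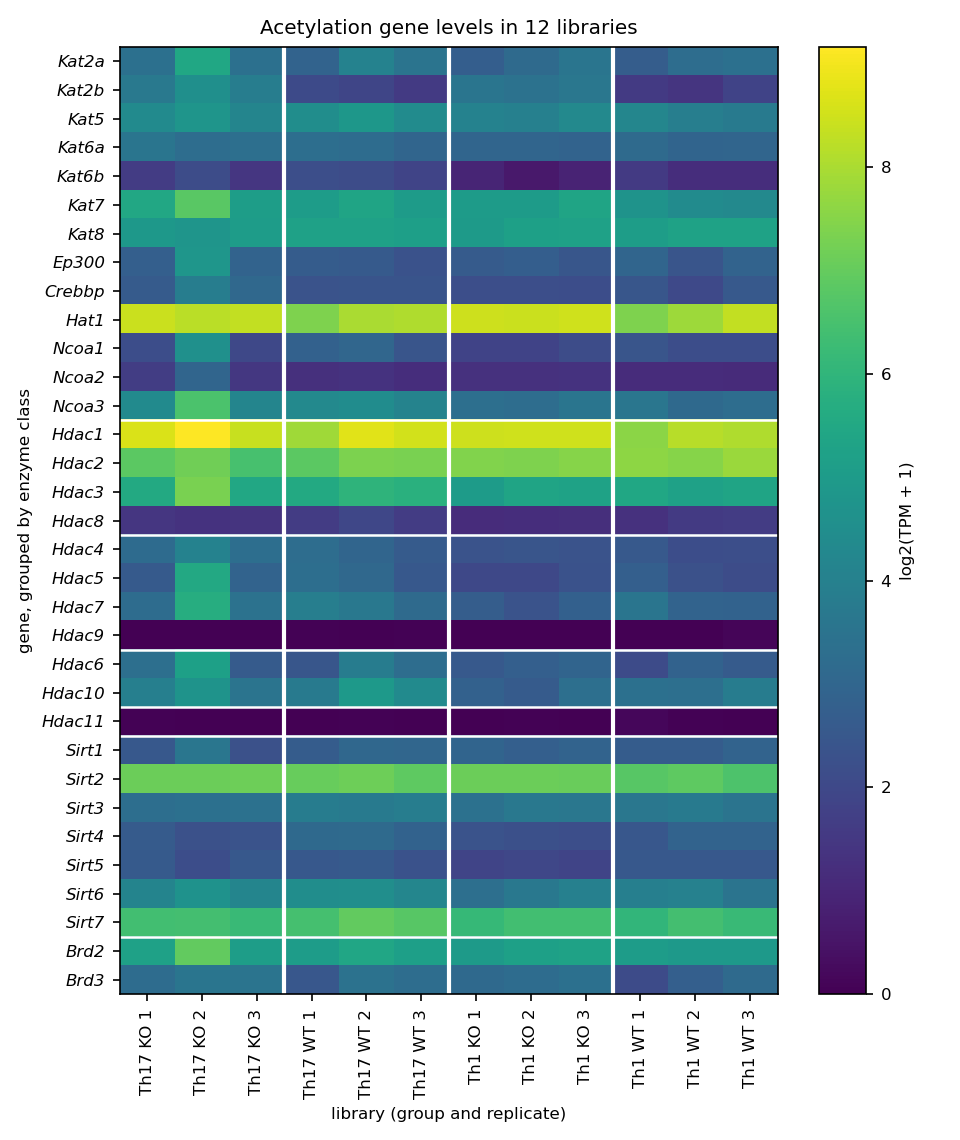
Level of each of the 33 genes, as log2(TPM + 1) by colour, in the 12 libraries (columns, by group and replicate number), with white lines between the 4 groups and between enzyme classes. Hat1, Hdac1, Hdac2 and Sirt2 are bright in every library, Hdac9 and Hdac11 are at the bottom of the scale throughout, and Kat2b is brighter in both KO groups than in both WT groups.

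GLUT3 loss was accompanied by a higher level of 1 acetyltransferase, Kat2b, in both lineages. Kat2b encodes PCAF, which is a catalytic subunit of the SAGA and ATAC coactivator complexes. It averaged 16.2 ± 5.68 TPM in Th17 KO and 2.61 ± 0.602 TPM in Th17 WT, and 10.8 ± 0.636 TPM in Th1 KO and 2.07 ± 0.494 TPM in Th1 WT (SD, n = 3 each). None of the other 30 tested genes passed the test in both lineages.

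The start regions of the genes that passed in a genotype comparison are shown so that their sequence can be read beside the values. Of the 33 genes, 27 had an entry among the RefSeq promoters of build GRCm38.p6, each 250 bases before to 50 bases after an annotated start. Kat6a, Ncoa2, Ncoa3, Hdac1, Hdac3 and Hdac10 are missing entries. Kat2b had a further entry at chr17:53583876-53584175. Kat2a is shown as the paralog of Kat2b that did not pass. Sequences run 5′ to 3′ on the strand of the gene, and capitals mark the motif matches described after them.
Kat2b (chr17:53566721-53567020, plus strand): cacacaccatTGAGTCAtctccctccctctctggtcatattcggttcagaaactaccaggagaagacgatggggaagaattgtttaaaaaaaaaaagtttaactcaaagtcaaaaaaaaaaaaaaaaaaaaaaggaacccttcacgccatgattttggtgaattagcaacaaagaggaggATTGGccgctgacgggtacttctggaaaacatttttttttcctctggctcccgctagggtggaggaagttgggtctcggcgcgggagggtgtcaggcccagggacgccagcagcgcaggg
Kat7 (chr11:95310197-95310496, minus strand): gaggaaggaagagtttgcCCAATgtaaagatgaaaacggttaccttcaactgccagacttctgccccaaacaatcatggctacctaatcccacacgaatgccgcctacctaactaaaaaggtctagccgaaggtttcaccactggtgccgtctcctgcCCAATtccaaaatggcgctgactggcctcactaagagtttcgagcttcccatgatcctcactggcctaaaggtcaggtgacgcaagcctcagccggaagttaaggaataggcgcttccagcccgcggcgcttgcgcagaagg
Sirt5 (chr13:43365285-43365584, plus strand): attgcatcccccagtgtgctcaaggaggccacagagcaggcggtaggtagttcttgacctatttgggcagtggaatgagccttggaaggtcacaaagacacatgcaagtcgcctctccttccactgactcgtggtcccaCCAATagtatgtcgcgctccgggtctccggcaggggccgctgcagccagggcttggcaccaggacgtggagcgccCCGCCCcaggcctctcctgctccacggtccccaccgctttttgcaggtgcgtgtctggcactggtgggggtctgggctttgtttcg
Kat2a (chr11:100712418-100712717, minus strand): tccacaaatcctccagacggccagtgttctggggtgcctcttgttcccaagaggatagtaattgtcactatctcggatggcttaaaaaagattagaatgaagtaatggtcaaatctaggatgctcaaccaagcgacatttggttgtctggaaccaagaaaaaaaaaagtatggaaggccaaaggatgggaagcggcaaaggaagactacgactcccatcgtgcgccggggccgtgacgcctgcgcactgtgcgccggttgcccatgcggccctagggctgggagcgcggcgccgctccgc

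The search covered 7 motifs on both strands: an E-box (CACGTG), a FOXO motif (GTAAACA), an AP-1 motif (TGANTCA), a STAT motif (TTCNNNGAA), a cyclic AMP response element (TGACGTCA) and an SP motif (GGGCGG), together with the box spelled CCAAT. The first Kat2b entry held 1 AP-1 match and 1 CCAAT match on the other strand, and the second entry held none of the 7. Kat7 held 2 CCAAT matches, Sirt5 held 1 CCAAT match and 1 SP match on the other strand, and Kat2a held none. No printed matches overlapped. Among all 32851 promoter entries, 7.81% held the AP-1 letters, 37.4% the CCAAT letters and 35.7% the SP letters. Over the 27 genes, counting a gene when any of its 39 entries matched, 4 held AP-1, 13 CCAAT, 21 SP, 4 E-box, 3 STAT, 2 FOXO and 0 the cyclic AMP response element. The E-box, STAT, FOXO and cyclic AMP letters were in 7.15%, 8.3%, 3.65% and 1.79% of all entries. The GC content was 47% in the first Kat2b entry and 54.3% in Kat2a, with a median of 52.7% over all entries. A match is a description of the letters and not a measured binding site.

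In Th17 cells, 1 of 31 tested genes passed, Kat2b, which was higher in KO. Over all 13823 genes tested, 7.3% passed in either direction, 636 of them (4.6%) higher and 373 (2.7%) lower in KO. At an unadjusted p under 0.05 there were 3 of 31 (Kat2b and Crebbp higher, Sirt4 lower), against 25% of all genes. Without Th17 KO replicate 2 there were 3 higher and 4 lower of 31, against 1839 higher and 2550 lower of 13321 genes. Kat2b (gene ID 18519, chr17:53566774-53672721) was at 12.2, 22.7 and 13.6 TPM in Th17 KO, against 3.12, 2.78 and 1.95 TPM in Th17 WT. All 3 KO libraries lay above all 3 WT libraries, and KO replicate 2 was the highest. These levels rest on 771, 762 and 1046 reads in Th17 KO, against 163, 152 and 121 reads in Th17 WT. The log2 fold change was 2.21 ± 0.32 (SE), with a 95% interval of 1.46 to 2.96 and an adjusted p of 0.0118 (limma on log2(TPM + 1), Benjamini-Hochberg over all genes tested). Without Th17 KO replicate 2 it was 1.96, with an adjusted p of 0.00229, where 16.2% of all genes tested passed. The call was lost without Th17 KO replicate 1 (adjusted p = 0.0552, limma), Th17 WT replicate 2 (0.0705) or Th17 WT replicate 3 (0.0766), with log2 fold changes of 2.38, 2.25 and 2.07. The only annotated gene that overlaps Kat2b, Gm6919 on the other strand, averaged 0.116 TPM. These libraries do not mark strand, so reads of overlapping genes cannot be told apart.

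In Th1 cells, Kat2b was at 10.9, 10.1 and 11.3 TPM in KO, against 1.91, 1.67 and 2.62 TPM in WT. The KO libraries were close to each other and all above the WT libraries. The reads behind them were 829, 496 and 477 in Th1 KO, against 90, 94 and 128 in Th1 WT. Its log2 fold change was 1.95 ± 0.17, with a 95% interval of 1.56 to 2.34 and an adjusted p of 0.000155 (limma), and it passed in all 13 alternative fits. The genotype effect on Kat2b differed between the lineages by 0.26 ± 0.35 on the log2 scale (Th17 minus Th1, 95% interval -0.51 to 1.04, adjusted p = 1, limma). Without Th17 KO replicate 2 this difference was 0.01 (adjusted p = 0.995, limma).

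Kat2a, which encodes GCN5 and takes the same place as PCAF in SAGA and ATAC, did not pass in either lineage. It was at 9.36, 42.8 and 9.4 TPM in Th17 KO, against 6.51, 15.7 and 10.5 TPM in Th17 WT. KO replicate 2 was far above the rest and the groups overlapped. Th1 KO libraries had 5.74, 7.96 and 10.7 TPM, against 5.5, 8.58 and 9.39 TPM in Th1 WT, again overlapping. The Kat2a log2 fold change was 0.57 (95% interval -0.87 to 2.01) in Th17 and 0.04 (-0.54 to 0.62) in Th1. The Th17 value was -0.12 (adjusted p = 0.825, limma) when KO replicate 2 was left out. The ratio of Kat2b to Kat2a within a library was 1.31, 0.529 and 1.44 in Th17 KO, against 0.479, 0.177 and 0.184 in Th17 WT. In Th1 it was 1.9, 1.27 and 1.06 in KO, against 0.348, 0.194 and 0.279 in WT. The ratio was higher in every KO library than in every WT library of the same lineage, by 4.0-fold in Th17 and 5.14-fold in Th1 (exact permutation test, two-sided, p = 0.10 in each, the smallest that 3 against 3 libraries allows). This ratio and that of Hdac1 to Hdac2 were chosen after their values had been seen, so their permutation p-values are no evidence of a difference.

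**Figure D2:**
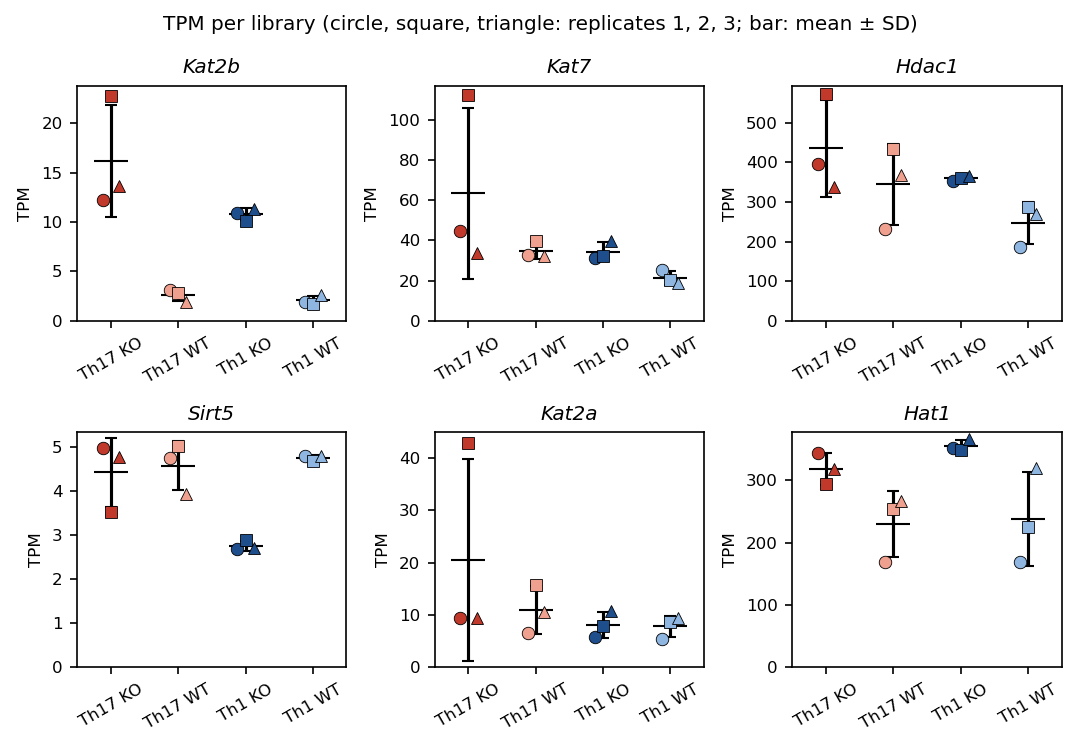
TPM (vertical axes, from 0) of Kat2b, Kat7, Hdac1, Sirt5, Kat2a and Hat1 in each library of the 4 groups; circles, squares and triangles are replicates 1, 2 and 3, and bars give mean ± SD (n = 3). Kat2b lies above 10 TPM in all 6 KO libraries and at 3.12 TPM or lower in all 6 WT libraries, Sirt5 is low in Th1 KO only among the groups plotted, and the square of Th17 KO is far above its group for Kat7 and Kat2a.

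Among the other acetyltransferases, Kat7 rose in Th1 KO. Kat7 encodes HBO1, which acetylates histones H3 and H4 in complexes with BRPF or JADE proteins. It was at 31.4, 32.0 and 39.7 TPM in Th1 KO, against 25.2, 20.2 and 18.8 TPM in Th1 WT. The groups did not overlap. The log2 fold change was 0.66 ± 0.17 (95% interval 0.27 to 1.05, adjusted p = 0.0198, limma). The call was lost without Th1 KO replicate 2 (adjusted p = 0.0536, limma), Th1 KO replicate 3 (0.0816), Th1 WT replicate 2 (0.0522) or Th1 WT replicate 3 (0.0507), and with all 12 libraries in 1 fit (0.229). In Th17 cells Kat7 was at 44.5, 112 and 33.5 TPM in KO, against 32.8, 39.9 and 32.0 TPM in WT, and the groups overlapped. Its log2 fold change there, 0.65 (95% interval -0.36 to 1.66), was 0.15 without KO replicate 2 and passed in neither.

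Hat1, which acetylates newly made histone H4 before it enters chromatin, made up 41.9% to 73.9% of the summed acetyltransferase TPM of a library. It stood at 344, 293 and 317 TPM in Th17 KO, against 169, 253 and 266 TPM in Th17 WT, and at 352, 348 and 366 TPM in Th1 KO, against 169, 225 and 319 TPM in Th1 WT. The groups did not overlap in either lineage, and WT replicate 1 was the lowest in both. The log2 fold change was 0.50 (adjusted p = 0.219, limma) in Th17 and 0.63 (adjusted p = 0.0543, limma) in Th1, so neither passed. Ep300 and Crebbp encode the paired coactivators p300 and CBP. Their libraries did not overlap between Th17 KO and Th17 WT, but Ep300 was at 27.1 TPM in KO replicate 2, against 5.81 and 6.52 TPM in the other KO libraries and 4.01 to 5.4 TPM in WT (log2 fold change 0.97, and 0.31 without KO replicate 2). Crebbp was at 5.2, 13.8 and 7.65 TPM in Th17 KO, against 4.06, 4.18 and 4.19 TPM in Th17 WT (log2 fold change 0.85, adjusted p = 0.195, limma; 0.51 without KO replicate 2). In Th1 both groups of libraries overlapped for Ep300 and for Crebbp. The remaining 8 acetyltransferases (Kat5, Kat6a, Kat6b, Kat8, Ncoa1, Ncoa2 and Ncoa3, with Kat2a above) had log2 fold changes between -0.34 and 0.77 in Th17 and between -0.49 and 0.17 in Th1, and none passed. Without Th17 KO replicate 2 the Th17 values lay between -0.69 (Ncoa1) and 0.30 (Ncoa2), and those of Kat2a, Ncoa1 and Ncoa3 turned from above to below 0.

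Hdac1 rose in Th1 KO. It is a class I deacetylase of the NuRD, SIN3 and CoREST corepressor complexes, beside Hdac2, and had the highest median TPM of the 33 genes. It was at 352, 359.6 and 366 TPM in Th1 KO, against 187, 286 and 269 TPM in Th1 WT. The KO libraries were tightly grouped above all WT libraries, of which replicate 1 was the lowest. The log2 fold change was 0.56 ± 0.17 (95% interval 0.16 to 0.96, adjusted p = 0.039, limma). The Hdac1 call held in 6 of 13 alternative fits. It was lost without Th1 KO replicate 1 (adjusted p = 0.104, limma), replicate 2 (0.109) or replicate 3 (0.112), with no filter on low TPM (0.0889), with median-of-ratios scaling (0.0552), on recovered reads (0.0825) and with all 12 libraries (0.167). In Th17 cells Hdac1 was at 396, 573 and 338 TPM in KO, against 232, 433 and 368 TPM in WT. These groups overlapped, and the log2 fold change of 0.35 (95% interval -0.36 to 1.06; 0.13 without KO replicate 2) did not pass.

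Hdac2 had log2 fold changes of -0.33 in Th17 (-0.50 without KO replicate 2) and -0.17 in Th1, and neither passed. The ratio of Hdac1 to Hdac2 within a library was 3.48, 4.0 and 3.76 in Th17 KO, against 2.02, 2.68 and 2.31 in Th17 WT. In Th1 the ratio was 2.04, 2.13 and 2.02 in KO, against 0.96, 1.61 and 1.23 in WT. KO libraries were above WT libraries without overlap in both lineages, by 1.61-fold in Th17 and 1.67-fold in Th1. An exact two-sided permutation test gave p = 0.10 in each, the smallest possible. The ratio was chosen after its values had been seen, so this p was fixed beforehand and is no evidence of a difference. Among all genes tested, the genotypes also did not overlap for 36.7% in Th17 and 47.1% in Th1. The share of Hdac1 in the summed class I TPM (Hdac1, Hdac2, Hdac3 and Hdac8) was 63.2%, 63.1% and 62.4% in Th1 KO, against 43.9%, 56.9% and 50.8% in Th1 WT. In Th17 it was 71.0%, 65.3% and 71.4% in KO, against 58.7%, 65.8% and 62.8% in WT, where KO replicate 2 fell within the range of WT. Hdac3, the catalytic subunit of the NCoR and SMRT corepressors, and Hdac8 did not pass in either lineage. For Hdac8, KO libraries were below WT libraries without overlap in both, with log2 fold changes of -0.34 in Th17 and -0.31 in Th1.

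None of the tested class IIa and IIb deacetylases passed. Hdac4, Hdac5 and Hdac7 are class IIa enzymes, which shuttle between cytoplasm and nucleus and act mainly as signal-dependent corepressors. Their log2 fold changes lay between 0.54 and 0.69 in Th17, and between -0.25 and 0.30 without KO replicate 2. Hdac7 was at 8.38, 50.9 and 9.86 TPM in Th17 KO, against 14.2, 11.6 and 8.04 TPM in Th17 WT. In Th1 it was at 5.48, 4.03 and 5.93 TPM in KO, against 10.7, 6.64 and 6.32 TPM in WT, which did not overlap (log2 fold change -0.51, adjusted p = 0.119, limma). Hdac7 overlaps Slc48a1 on the other strand, which averaged 54.8 TPM. Hdac6, a cytoplasmic deacetylase of tubulin, and Hdac10, which deacetylates polyamines, are class IIb. Hdac10 was at 6.13, 5.22 and 9.28 TPM in Th1 KO, against 9.46, 9.11 and 13.5 TPM in Th1 WT (log2 fold change -0.58, adjusted p = 0.0884, limma).

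Of the sirtuins, Sirt5 fell in Th1 KO. Sirt5 is a mitochondrial enzyme that removes mainly succinyl, malonyl and glutaryl groups. It was at 2.68, 2.89 and 2.72 TPM in Th1 KO, against 4.8, 4.69 and 4.81 TPM in Th1 WT. Replicates lay close together in both groups, with no overlap. The log2 fold change was -0.62 ± 0.15 (95% interval -0.95 to -0.28, adjusted p = 0.0132, limma), and the call was lost without Th1 KO replicate 1 (0.0638) or replicate 2 (0.0528). In Th17, Sirt5 was at 4.98, 3.54 and 4.77 TPM in KO, against 4.76, 5.02 and 3.95 TPM in WT, with overlap and a log2 fold change of -0.04 (95% interval -0.63 to 0.55). The difference between the lineages was 0.57 (95% interval -0.00 to 1.14, adjusted p = 0.785, limma), and 0.70 without Th17 KO replicate 2 (adjusted p = 0.138). A call in Th1 alone is therefore not shown to be a difference between lineages.

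Sirt4, another mitochondrial sirtuin, did not pass. It was at 5.2, 3.84 and 4.13 TPM in Th17 KO, against 7.71, 8.07 and 6.43 TPM in Th17 WT, and at 4.13, 3.74 and 3.62 TPM in Th1 KO, against 4.63, 6.56 and 6.61 TPM in Th1 WT. KO libraries were below WT libraries without overlap in both lineages, with log2 fold changes of -0.64 (adjusted p = 0.169, limma) and -0.51 (adjusted p = 0.058, limma). The third mitochondrial sirtuin, Sirt3, was at 9.0, 9.35 and 9.69 TPM in Th17 KO, against 13.3, 12.5 and 13.8 TPM in Th17 WT (log2 fold change -0.46, adjusted p = 0.255, limma), while the Th1 groups overlapped. Sirt3 overlaps Ric8a, which averaged 64.5 TPM. The cytoplasmic Sirt2 and the nucleolar Sirt7 together made up 80.7% to 86.5% of the summed sirtuin TPM of each library. Sirt2 was at 138, 137 and 139 TPM in Th17 KO, against 131, 142 and 118 TPM in Th17 WT, and at 138, 136 and 133 TPM in Th1 KO, against 108, 119 and 96.5 TPM in Th1 WT (Th1 log2 fold change 0.33, adjusted p = 0.099, limma). The nuclear Sirt1 and Sirt6 had log2 fold changes between -0.19 and 0.13 in the 2 lineages. Those in Th17 were -0.51 for Sirt1 and -0.25 for Sirt6 when KO replicate 2 was left out.

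Brd2 and Brd3, bromodomain proteins of the BET family that bind acetylated histones, did not pass. Brd2 was at 37, 124 and 33.3 TPM in Th17 KO, against 32.3, 42.2 and 34.8 TPM in Th17 WT, with log2 fold changes of 0.56 in Th17 (-0.04 without KO replicate 2) and 0.17 in Th1. Brd3 was at 7.84, 8.56 and 9.42 TPM in Th1 KO, against 3.31, 5.86 and 8.09 TPM in Th1 WT (log2 fold change 0.57, adjusted p = 0.128, limma), with overlap.

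**Figure D3:**
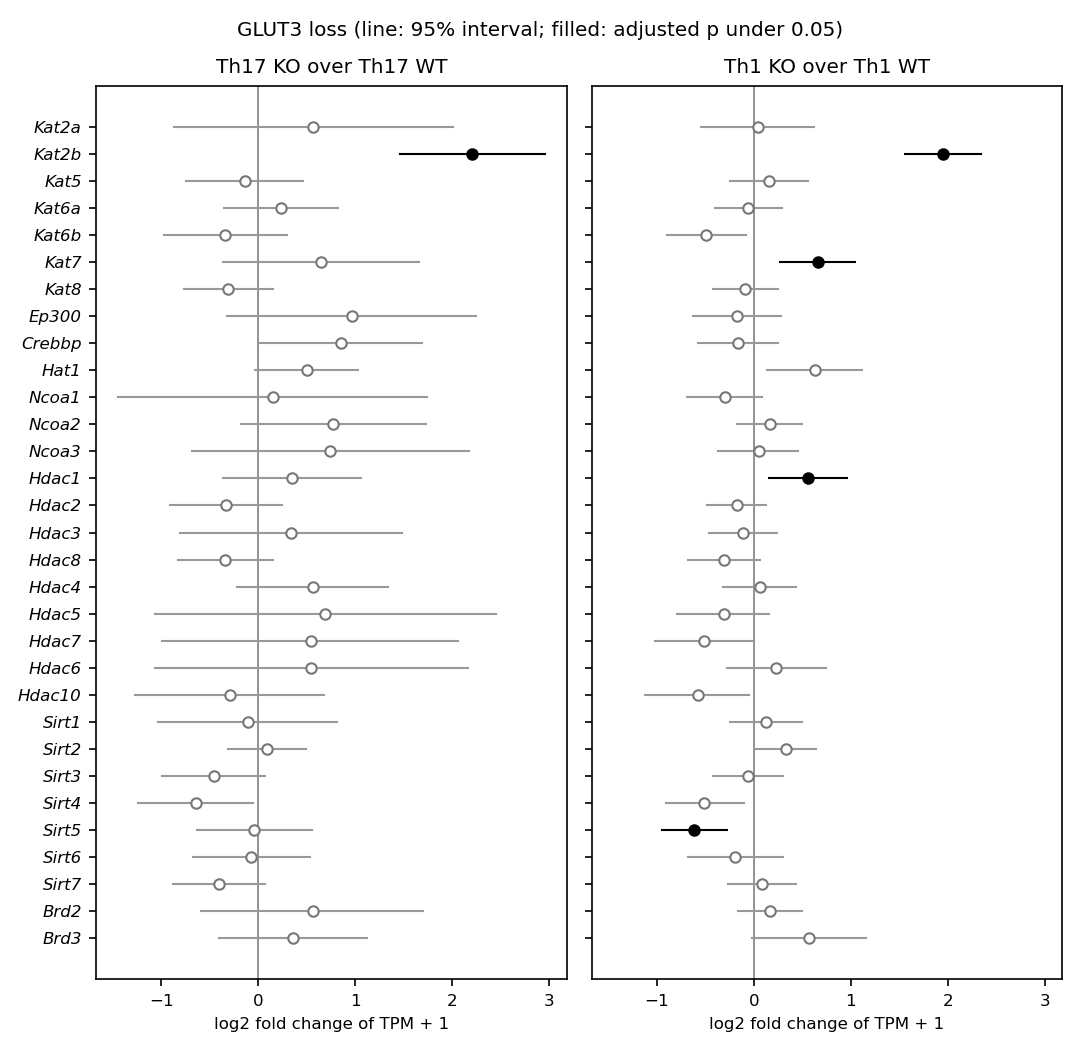
Log2 fold change of TPM + 1 (horizontal axes, same scale) for the 31 tested genes in Th17 KO over Th17 WT (left) and Th1 KO over Th1 WT (right), with 95% intervals as lines and filled points where the adjusted p is under 0.05. Kat2b is the rightmost point in both panels at 2.21 and 1.95, and intervals are wider in Th17 for most genes.

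In total, 4 of 31 tested genes passed in Th1 (Kat2b, Kat7 and Hdac1 higher, Sirt5 lower), against 31.3% of all 13487 genes tested, of which 2374 (17.6%) were higher and 1846 (13.7%) lower. At an unadjusted p under 0.05 there were 9 of 31, 5 higher and 4 lower, against 42.9% of all genes. In Th17 the libraries of the genotypes did not overlap for 10 of 31 genes, 5 in each direction, against 36.7% of all genes. Kat2b, Ep300, Crebbp, Hat1 and Ncoa2 were higher in KO, and Kat8, Hdac8, Sirt3, Sirt4 and Sirt7 lower. In Th1 the libraries did not overlap for 12 of 31, 6 in each direction, against 47.1% of all genes. Kat2b, Kat7, Hat1, Ncoa2, Hdac1 and Sirt2 were higher in KO, and Kat6b, Ncoa1, Hdac7, Hdac8, Sirt4 and Sirt5 lower. Kat6b was at 0.937, 0.552 and 0.868 TPM in Th1 KO, against 1.92, 1.32 and 1.3 TPM in Th1 WT. It reached 1 TPM in enough libraries only through WT, so the filter favoured its place among the lower genes in both Th1 counts. Both shares of passing genes lie below those of all genes, and the counts without overlap are not above them. The median log2 fold change over the 31 genes was 0.34 in Th17, against 0.04 over all genes, but -0.19 against -0.11 without KO replicate 2. In Th1 the median was -0.06, against 0.03 over all genes. The 2 genotype comparisons share no library. The sign was the same in both for 21 of 31 genes (67.7%), 12 higher and 9 lower, against 80.9% of the 13070 genes tested in both. Pearson's r across the 31 genes was 0.65 and Spearman's rho 0.37, against 0.79 and 0.78 across all genes; genes are not independent replicates.

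No gene passed in the test of the difference between the 2 genotype effects (limma, 0 of 31, against 0.638% of 14579 genes, 0.35% higher and 0.288% lower). At an unadjusted p under 0.05 there was 1 of 31, Crebbp, against 6.38% of all genes, with a difference of 1.01 (Th17 minus Th1, 95% interval 0.13 to 1.89, adjusted p = 0.616). Fits on recovered reads also gave 0. Without Th17 KO replicate 2 the Crebbp difference was 0.67 (adjusted p = 0.263, limma). In that fit, 2 higher and 2 lower of 31 genes had an unadjusted p under 0.05, against 917 higher and 1220 lower of 14349 genes.

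Th17 KO replicate 2 had the highest level of all 12 libraries for 18 of the 33 genes. The same count was not made over all genes, so nothing particular to the 33 is read from it. In this library, 13 of 31 genes (41.9%) were at least 2 times the mean of replicates 1 and 3, against 30.1% of all genes tested. The ratio ran from 0.727 to 7.83 with a median of 1.8, against a median of 1.28 over all genes. Hdac5 gave the highest ratio, at 45.1 TPM in replicate 2 beside 5.04 and 6.47 TPM in replicates 1 and 3, and Ncoa1 the next, at 23.1 TPM beside 3.51 and 2.96 TPM. Ncoa1 overlaps Gm51963 on the other strand, which averaged 9.55 TPM. Kat2b, at 22.7 TPM beside 12.2 and 13.6 TPM, was under 2 times that mean. The 13 genes had a median exon length of 6287 bases, against 2879 bases for the other 18. Among all genes tested the medians were 4459 and 1908 bases. The part of exon length in these ratios was not tested.

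**Figure D4:**
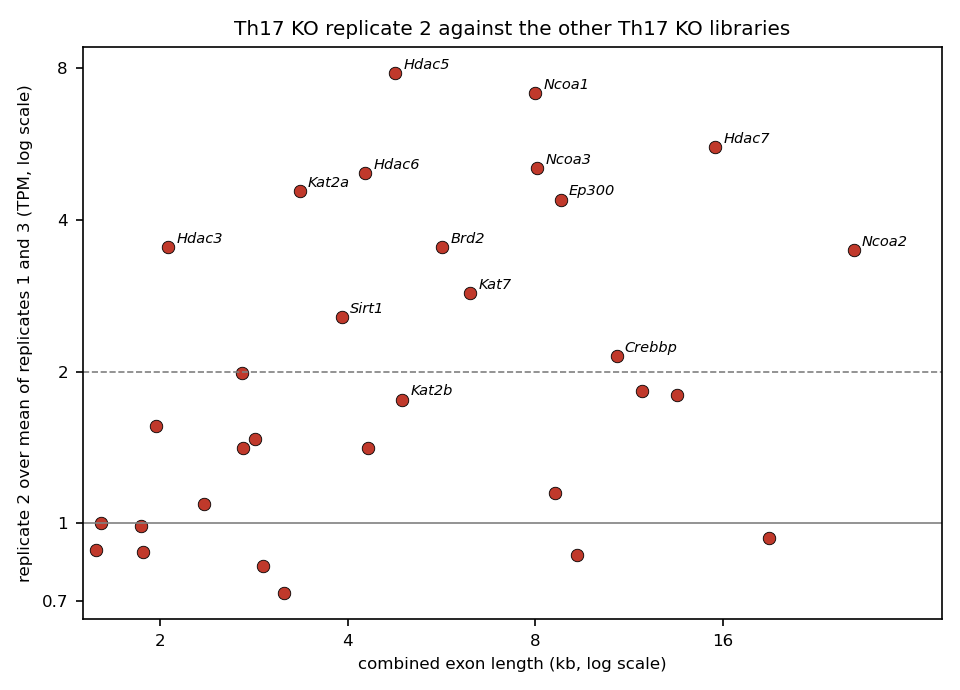
TPM in Th17 KO replicate 2 divided by the mean of Th17 KO replicates 1 and 3 (vertical, log scale) against combined exon length in kb (horizontal, log scale) for the 31 tested genes, with lines at 1 and 2. The 13 named genes above the dashed line at 2 reach 7.83 (Hdac5), and Kat2b lies below it.

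Between lineages, 2 of 31 genes passed in GLUT3-deficient cells, Hdac4 and Kat6b, both higher in Th17 KO than in Th1 KO. Over all genes, 5.91% passed, 488 (3.35%) higher and 373 (2.56%) lower, or 470 and 564 with median-of-ratios scaling, which moves the median of all genes to -0.04. At an unadjusted p under 0.05 there were 13 of 31, 12 higher and 1 lower, against 20.6% of all genes, 2008 higher and 989 lower. Without Th17 KO replicate 2 there were 10 higher and 2 lower of 31, against 1799 higher and 1348 lower of 14349 genes. The libraries of both groups did not overlap for 18 of 31 genes, 15 higher and 3 lower, against 29.7% of all genes, 2746 higher and 1579 lower. Hdac4 was at 8.32, 15.7 and 8.82 TPM in Th17 KO, against 4.14, 4.36 and 4.03 TPM in Th1 KO, with no overlap. Its log2 fold change was 1.15 ± 0.26 (95% interval 0.59 to 1.72, adjusted p = 0.0205, limma), and 0.89 without Th17 KO replicate 2 (adjusted p = 0.0178). Kat6b, the acetyltransferase MORF, was at 2.08, 3.43 and 1.72 TPM in Th17 KO, against 0.937, 0.552 and 0.868 TPM in Th1 KO, also without overlap. Its log2 fold change was 0.91 ± 0.22 (adjusted p = 0.0325, limma), and 0.70 without Th17 KO replicate 2 (adjusted p = 0.0433). Both calls were lost when any 1 Th1 KO library was left out, with adjusted p (limma) of 0.0719 to 0.0856 for Hdac4 and 0.0857 to 0.155 for Kat6b, and when only the 6 libraries of the 2 groups were fitted (0.0842 and 0.111). The Kat6b call was also lost without Th17 KO replicate 1 (0.0609) and without Th17 WT replicate 2 (0.0527). Without Th17 KO replicate 2, 5 of 31 genes passed (Hdac4, Kat6b, Ncoa3, Sirt5 and Hdac2, the last one lower in Th17 KO), against 8.5% of all genes, 623 higher and 596 lower. The median over the 31 genes was 0.62, against 0.13 over all genes, and 0.22 against 0.05 without that library.

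In wild-type cells, 0 of 31 genes passed between Th17 WT and Th1 WT (limma), against 3.63% of all genes, 270 (1.85%) higher and 259 (1.78%) lower. With median-of-ratios scaling 217 were higher and 366 lower, and the median of all genes was -0.00 in place of 0.14. At an unadjusted p under 0.05 there were 7 of 31, 6 higher and 1 lower in Th17 WT, against 14.6% of all genes, 1429 higher and 705 lower. Without Th17 KO replicate 2 there were 11 higher and 1 lower of 31, against 2877 higher and 1069 lower of 14349 genes. Groups did not overlap for 13 of 31, 12 higher and 1 lower, against 26.7% of all genes, 2740 higher and 1150 lower. All genes thus also leaned to the higher side in Th17 WT. On recovered reads 1 passed, Kat6b (log2 fold change 1.02, adjusted p = 0.0391, voom and limma). Kat6b was at 3.64, 3.4 and 2.65 TPM in Th17 WT, against 1.92, 1.32 and 1.3 TPM in Th1 WT, with no overlap. Its log2 fold change on TPM was 0.76 ± 0.22 (adjusted p = 0.106, limma). The spread in this fit is shared by all 12 libraries. When Th17 KO replicate 2 was left out, 5 of 31 genes passed, all higher in Th17 WT, against 11% of all genes, 1064 higher and 518 lower. The 5 were Ncoa3 (adjusted p = 0.00464, limma), Kat6b (0.0169), Kat7 (0.0286), Hdac4 (0.0384) and Kat5 (0.0406). Ncoa3, a nuclear receptor coactivator, was at 18.7, 20.8 and 16.3 TPM in Th17 WT, against 11.2, 7.74 and 8.68 TPM in Th1 WT. Kat2b had a log2 difference between lineages of 0.50 (95% interval -0.05 to 1.04) in KO and 0.23 (-0.31 to 0.78) in WT.

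**Figure D5:**
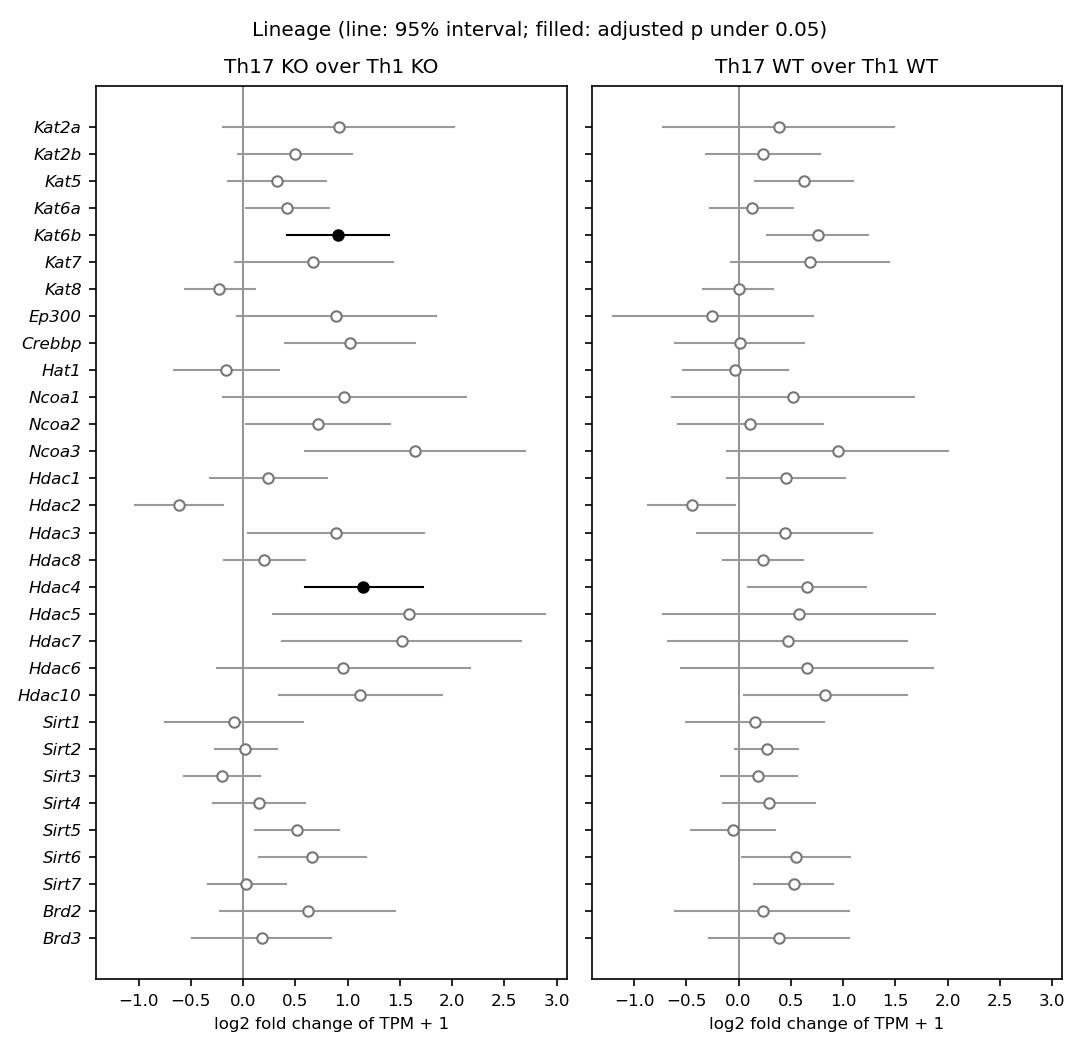
Log2 fold change of TPM + 1 (horizontal axes, same scale) between lineages for the 31 tested genes, Th17 KO over Th1 KO (left) and Th17 WT over Th1 WT (right), with 95% intervals as lines and filled points where the adjusted p is under 0.05. Hdac4 at 1.15 and Kat6b at 0.91 are filled in KO, no point is filled in WT, and most points lie to the right of 0. Of all 14579 genes tested, 9088 lay above and 5485 below 0 in KO, and 9424 and 5136 in WT.

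Partner proteins and substrate supply were described from 10 further lists. In Th1, 8.33% to 30.8% of a list's tested genes passed, in each list below the 31.3% of all genes tested. In Th17 the shares were 0% to 7.69% in 9 lists and 20% (2 of 10) for NAD supply, against 7.3% of all genes. The counts that follow are descriptions, and nothing particular to these lists is read from them. The SAGA and ATAC subunits, the complexes of Kat2b and Kat2a, had 0 of 22 tested genes passing in Th17 and 2 of 22 (9.09%) in Th1. Those were Tada2b, at 3.39 ± 0.13 TPM in KO and 2.09 ± 0.432 TPM in WT, and Sgf29, at 19.9 ± 1.85 TPM in KO and 33.4 ± 6.21 TPM in WT. The Sgf29 call was lost without Th1 KO replicate 1 or 2 (adjusted p up to 0.0748, limma), and that of Tada2b without any 1 Th1 library other than WT replicate 3 (up to 0.122). NuA4 subunits, which work with Kat5, had 1 of 15 higher in Th17, and 3 higher and 1 lower of 15 in Th1. Morf4l1, a chromodomain subunit of NuA4 and of SIN3, was higher in both: 177 ± 21.9 TPM in Th17 KO and 83.0 ± 3.61 TPM in Th17 WT (adjusted p = 0.0173, limma), and 164 ± 17.4 TPM in Th1 KO and 87.8 ± 14.4 TPM in Th1 WT (adjusted p = 0.00397). The Th17 call for Morf4l1 was lost without Th17 KO replicate 1 or 3 or Th17 WT replicate 2 or 3 (adjusted p up to 0.101, limma). MOZ, HBO1, MSL and NSL subunits had 0 of 18 passing in Th17, and 1 higher (Jade3, a partner of Kat7) and 1 lower (Msl3) of 18 in Th1. Msl3 did not pass without Th1 KO replicate 1 or 2 (adjusted p up to 0.103, limma). Of 8 other acetyltransferases, 0 passed in Th17 and 1, Clock, was higher in Th1, at 1.28 ± 0.225 TPM in KO and 0.276 ± 0.0964 TPM in WT. Clock reached 1 TPM in enough Th1 libraries only through KO, where it was higher, so it was not tested with a KO library left out. The Th1 calls of Clock, Jade3, Msl3, Sgf29 and Tada2b were also lost with all 12 libraries in 1 fit.

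Among deacetylase complexes, NuRD subunits had 0 of 12 passing in Th17 and 3 lower of 12 (25%) in Th1, against 31.3% of all genes. Chd3, a NuRD helicase, was at 0.874 ± 0.098 TPM in Th1 KO and 3.61 ± 0.552 TPM in Th1 WT (log2 fold change -1.29, adjusted p = 0.000727, limma), and Mta1 and Mbd3 had log2 fold changes of -0.87 and -0.69. Chd3 reached 1 TPM in enough Th1 libraries only through WT, where it was higher, so it was not tested with a Th1 WT library left out. Mbd3 lost its call without Th1 KO replicate 1 (adjusted p = 0.0629, limma). SIN3 subunits had 1 higher of 13 in Th17 and 4 higher of 13 (30.8%) in Th1. Arid4a, a SIN3 subunit, was higher in both lineages, at 18.1 ± 0.285 TPM in Th17 KO and 7.96 ± 0.459 TPM in Th17 WT (adjusted p = 0.0326, limma), and at 22.1 ± 1.55 TPM in Th1 KO and 11.9 ± 1.2 TPM in Th1 WT (adjusted p = 0.00378). Its Th17 call was lost with the replicate number as a block (adjusted p = 0.0509, limma) and without any 1 Th17 library other than KO replicate 2 (up to 0.174). Sap30l and Brms1l rose in Th1 KO with log2 fold changes of 1.17 and 1.54. CoREST and NCoR subunits had 0 of 13 passing in Th17 and 1 higher of 12, Tbl1xr1, in Th1, which did not pass without any 1 Th1 KO library (adjusted p up to 0.0892, limma). Other acetyl readers had 1 higher of 28 in Th17 (Brwd3, 3.12 ± 0.795 TPM in KO and 0.554 ± 0.12 TPM in WT), and 4 higher and 1 lower of 28 in Th1, among them Phip, Baz2b and Brwd3. In Th17, Brwd3 reached 1 TPM in enough libraries only through KO, where it was higher, so it was not tested there with a KO library left out. Calls were lost for Brwd3 in Th17 without WT replicate 2 or 3 (adjusted p up to 0.0979, limma) and in Th1 without KO replicate 1 or 3 or WT replicate 2 (up to 0.0819), and for Baz2b without any 1 Th1 KO library or WT replicate 2 (up to 0.0689). With all 12 libraries in 1 fit, the Th1 calls of Mta1 and Tbl1xr1 were lost.

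Genes that supply acetyl-CoA had 0 of 14 passing in Th17, and 3 higher and 1 lower of 13 (30.8%) in Th1, against 31.3% of all genes. Slc33a1, the acetyl-CoA transporter of the endoplasmic reticulum, was at 14.0 ± 0.262 TPM in Th1 KO and 7.1 ± 1.78 TPM in Th1 WT, and Mpc1, a subunit of the mitochondrial pyruvate carrier, at 26.3 ± 2.73 TPM in Th1 KO and 46.2 ± 8.53 TPM in Th1 WT. Crat, the carnitine acetyltransferase, was at 5.24 ± 1.08 TPM in Th1 KO and 2.39 ± 0.316 TPM in Th1 WT. The calls of Slc33a1 and Crat were lost with all 12 libraries in 1 fit. Of the genes that supply NAD, the cofactor of sirtuins, 1 of 10 was higher and 1 lower in Th17, and 1 of 9 was higher in Th1. Naprt, which makes NAD from nicotinic acid, was higher in both lineages, at 11.0 ± 2.09 TPM in Th17 KO and 2.63 ± 1.22 TPM in Th17 WT (adjusted p = 0.0243, limma), and at 21.4 ± 3.29 TPM in Th1 KO and 8.39 ± 3.26 TPM in Th1 WT (adjusted p = 0.00475). Nmnat3, which makes NAD in mitochondria, averaged 2.47 TPM in Th17 KO and 6.43 TPM in Th17 WT, with a log2 fold change of -1.10 ± 0.24. The Th17 calls of Naprt and Nmnat3 were lost with no filter on low TPM and without any 1 Th17 library other than KO replicate 2 (adjusted p up to 0.123 and 0.177, limma), and that of Nmnat3 also with the replicate block (0.0587). No gene of these 10 lists passed in the test of the difference between the genotype effects (limma). Between lineages in KO cells, 1 of 12 NuRD subunits (8.33%) and 2 of 13 CoREST and NCoR subunits (15.4%) passed, against 5.91% of all genes. Each was higher in Th17 KO, and no gene of the other lists passed. Chd3 was at 3.9 ± 1.58 TPM in Th17 KO and 0.874 ± 0.098 TPM in Th1 KO (adjusted p = 0.0112, limma, and 0.0171 without Th17 KO replicate 2). Its call was lost without Th1 KO replicate 2 (0.056). Kdm1a, the demethylase of CoREST, was at 58.8 ± 22.2 TPM in Th17 KO and 27.4 ± 3.63 TPM in Th1 KO (adjusted p = 0.0215, limma), with a log2 fold change of 1.02, and 0.73 without Th17 KO replicate 2. Its call was lost without Th1 KO replicate 1 or 2 (adjusted p up to 0.103, limma). Phf21a, a CoREST subunit, was at 4.67 ± 1.11 TPM in Th17 KO and 2.17 ± 0.299 TPM in Th1 KO (adjusted p = 0.0307, limma). Its call was lost without Th17 KO replicate 3, Th17 WT replicate 2 or any 1 Th1 KO library (adjusted p up to 0.14, limma). The calls of Chd3, Kdm1a and Phf21a were all lost when only the 6 libraries of the 2 groups were fitted. In WT cells, 1 of 28 other acetyl readers (3.57%) and 1 of 10 genes of NAD supply (10%) passed, both lower in Th17. No gene of the other lists passed. Over all genes tested, 3.63% passed and 1.78% were lower. Mllt3, a YEATS domain reader, was at 8.0 ± 2.76 TPM in Th17 WT and 19.9 ± 4.09 TPM in Th1 WT (adjusted p = 0.0139, limma), and did not pass without Th17 WT replicate 2 or 3 or Th1 WT replicate 1 or 3 (up to 0.075). Naprt, at the WT levels above, had an adjusted p of 0.0264 (limma). Its call was lost with a pseudocount of 5, with no filter on low TPM, with only 6 libraries fitted, and without Th17 WT replicate 1 or 3 or Th1 WT replicate 2 or 3 (adjusted p up to 0.104, limma).

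Markers of other cells and of the helper lineages moved with genotype beside these results. The 4 Th1 markers summed to 96.5 to 380.1 TPM in Th17 KO, against 44.1 to 69.7 in Th17 WT. In Th1 they summed to 7205 to 9113 TPM in KO, against 781 to 1349.8 in WT. The 5 Th17 markers summed to 473 to 657 TPM in Th17 KO, against 660.1 to 1186 in Th17 WT. In Th1 their sums were 9.0 to 27.6 TPM in KO, against 20.1 to 22.3 in WT. Of the Th1 markers, 1 was higher in Th17 KO, and 3 were higher and 1 lower in Th1 KO. No Th17 marker passed in Th17, while 3 were higher and 2 lower in Th1 KO. Of 7 CD4 T cell markers, 1 was higher in Th17 KO and 4 in Th1 KO. The summed TPM of 7 gamma delta T cell markers was 167 to 262 in Th17 KO, against 17.5 to 21.1 in Th17 WT, and 174 to 278 in Th1 KO, against 15.0 to 33.7 in Th1 WT. Of the 5 tested in each lineage, 4 were higher in Th17 KO and 5 in Th1 KO. The 7 CD8 T and NK cell markers summed to 88.2 to 99.9 TPM in Th17 KO, against 48.9 to 64.1 in Th17 WT, and to 191 to 281 TPM in Th1 KO, against 61.8 to 78 in Th1 WT. Of the 5 tested in each lineage, 2 were higher in Th17 KO, and 3 were higher and 2 lower in Th1 KO. Sums of 8 myeloid markers were 44.2 to 64.9 TPM in Th17 KO, against 12.4 to 14.6 in Th17 WT, and 25.2 to 46.1 TPM in Th1 KO, against 10.9 to 14.0 in Th1 WT, with Csf1r, Itgam and Adgre1 under 1 TPM in all libraries. For 8 red cell and platelet markers the sums were 42.8 to 103 TPM in Th17 KO, against 7.6 to 15.4 in Th17 WT, and 59.4 to 194 TPM in Th1 KO, against 11.4 to 23.5 in Th1 WT. The 7 B cell markers summed to 132 to 198 TPM in Th17 KO, against 114 to 153 in Th17 WT, and to 68.4 to 475 TPM in Th1 KO, against 88.1 to 112 in Th1 WT, so these sums overlapped in both lineages. Of the 5 tested in each lineage, 1 was higher in Th17 KO (Igkc, 87.5 ± 26.8 TPM in KO and 32.2 ± 7.03 TPM in WT, adjusted p = 0.0369, limma) and 0 passed in Th1, where 2 had an unadjusted p under 0.05. The 18 immediate early genes, which respond to handling as well as to stimulation, summed to 3027 to 3565 TPM in Th17 KO, against 1562 to 1771 in Th17 WT, and to 3372 to 4023 TPM in Th1 KO, against 1157 to 1550.2 in Th1 WT. The part of all these markers and of the immediate early genes in the Kat2b, Kat7, Hdac1 and Sirt5 results was not tested. In bulk RNA, a lower level from fewer cells of a type and one from less RNA per cell cannot be told apart.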

How the data were processed

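Total RNA was amplified with SMART-Seq v4 from 5 ng and fragmented with Nextera XT, then sequenced from 1 end, 75 nt, per the labels' protocols. The submitters' processing notes list STAR 2.7.2b, featureCounts 1.6.4 and build GRCm38.p6 among other tools, with no role or order. The authors deposited 1 table of TPM per lineage, in which every library has the same sum and decimals are written with a comma. TPM times exon length gave whole reads within 0.02 for 100.0% of values, so reads were recovered. Replicates differed by far more than sampling noise (chi-square per gene 12.2 to 309).

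limma 3.58.1 (R 4.3.3) was fitted to log2(TPM + 1) of the genes that reached 1 TPM in 3 or more of the libraries compared (mean-variance trend, two-sided, Benjamini-Hochberg over all genes tested, threshold 0.05). This scale understates changes of low genes. Genotypes were compared on the 6 libraries of a lineage. The difference of the genotype effects and the lineages were compared in a model of 4 group means over 12 libraries. The steps were run on simulated reads with the same spread for all genes and no outlying library. That setting is unlike these libraries, so it does not vouch for the calls.

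Sample titles gave the groups and the replicate numbers. Same-numbered libraries deviated together in Th17 (correlations 0.14, 0.41 and 0.23) and in wild type (0.72, 0.26 and 0.53). The numbers were taken to pair these on this correlation alone. In Th17, replicates 1 and 3 also correlated across numbers, at 0.09 and 0.11, so the pairing there is weakly shown. In wild type, Th17 replicate 2 correlated with Th1 replicate 3 at 0.28, and Th17 replicate 3 with Th1 replicate 2 at 0.21. The pairing of replicates 2 and 3 is therefore weakly shown there too. The reported fits leave the pairing out, and the block was an alternative. The 33 genes and all other lists were chosen with earlier results of these data known. Genes named from the other lists are at most the 3 with the smallest adjusted p among those that passed. Alternatives were pseudocounts of 0.5 and 5, no filter, median-of-ratios scaling, voom on recovered reads, the replicate block, other sets of libraries and each library left out.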

Additional observations from a re-analysis of the deposited data

How the results depend on the processing

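The number of the 31 genes that passed moved as follows. In Th1, Kat6b was not tested when a Th1 WT library was left out, so it could not pass in those fits. In Th17 KO against Th17 WT it was 1 in the reported fit, 2 (Kat2b and Sirt4) with all 12 libraries in the fit, and 0 to 1 with a library left out. In Th1 KO against Th1 WT it was 4, with 8 on recovered reads (voom), 2 with all 12 libraries, and 1 to 5 with a library left out. The difference of the genotype effects gave 0 under every alternative run. Between Th17 WT and Th1 WT it was 0, with 1 on recovered reads, 1 in the fit of 6 libraries, and 0 to 5 with a library left out. Between Th17 KO and Th1 KO it was 2, with 1 at a pseudocount of 5, 1 with no filter, 5 with median-of-ratios scaling, 5 on recovered reads, 0 in the fit of 6 libraries, and 0 to 5 with a library left out. Leaving out a library or using fewer libraries lowers the number of samples; otherwise the cause was not tested. No value that passed changed its sign under any alternative.

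Over all genes, 1009 passed in Th17, with 2933 when all 12 libraries were fitted and 109 to 2158 with a library left out. In Th1 4220 passed, with 2568 when all 12 libraries were fitted and 2594 to 4587 with a library left out. For the difference of effects the count was 93, with 21 to 171 with a library left out and a split of 47 higher and 19 lower on recovered reads against 51 and 42. Between the WT groups it was 529 (309 to 1582), and between the KO groups 861 (449 to 1219).

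With the replicate number as a block, 1 gene passed in Th17 (Kat2b, adjusted p = 0.00821, limma), 0 in the difference of effects and 0 between the WT groups, as without the block. In Th1 (pair correlations 0.16, 0.21 and -0.07) and between the KO groups (0.22, -0.04 and -0.19) the numbers were not taken to pair the libraries; there the block gave 6 genes (Hat1 and Hdac10 added) and 2 genes. With 3 libraries a group, the intervals printed bound what could be seen.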
